A study of Mus musculus with 8 samples.

Results

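Immediate early genes are the group of genes that neurons transcribe within minutes of firing, and 10 of them were read gene by gene in mouse hippocampus: Fos, Fosb, Junb, Egr1, Egr2, Arc, Npas4, Nr4a1, Ier2 and Dusp1. They were chosen by name as rapidly induced transcription factors and effectors, and all 10 had a row in the deposited table of 29442 genes and were among the 27612 genes tested. Total RNA came from the ventral hippocampus of 8 young adult female C57BL/6 J mice, each with 1 library. DHEA, an androgen precursor made by the adrenal gland, was given to 4 mice (libraries HipR3, HipR4, HipR7 and HipR11) by repeated subcutaneous injection, and the sesame oil vehicle was given alone to the other 4 (HipR5, HipR9, HipR10 and HipR16). By the study's methods, mice of both groups had passed through forced swim, tail suspension and open field tests before dissection, and the time from the last test to dissection is not given for each mouse. RNA came from the hippocampus of a single side. The DHEA libraries held 35748416 to 38038361 counted reads and the sesame oil libraries 31483772 to 35418297. Groups are named by the deposited treatment labels. The study's own list of changed genes runs in the opposite direction to these labels, so each direction given here holds only as far as the labels do. By qRT-PCR in further hippocampal samples, the paper reports higher Aox2, Pomc and Wnt3a mRNA after DHEA. It reports lower Avpr1a, Ccr10 and P2ry10b mRNA, and lower AVPR1a protein by western blot. The paper describes the qRT-PCR results of all these genes as matching its sequencing, which is the direction of its own list.

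The products of these genes fall into a few families. Fos, Fosb and Junb encode subunits of the AP-1 transcription factor, Egr1 and Egr2 encode zinc finger transcription factors, Npas4 encodes a bHLH-PAS factor that responds to calcium entry, and Nr4a1 encodes an orphan nuclear receptor. Arc encodes a cytoskeletal protein of dendrites that takes part in AMPA receptor removal from synapses, Dusp1 encodes a phosphatase that switches off MAP kinases, and Ier2 encodes a small nuclear protein. Calcium entry and growth factor signals reach these promoters through the factors CREB and SRF, and the transcripts are short-lived, so that their level in a piece of hippocampus can follow recent firing. The paper reports a higher firing rate of ventral CA1 neurons after DHEA. It was recorded under anesthesia in mice other than those dissected for RNA. How firing relates to the levels given here was not tested. Arc and Egr1 are widely used as markers of active pyramidal and granule cells in this region.

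The stretch upstream of a start site is where CREB and SRF are known to act on genes of this kind, and such sequences from RefSeq (build GRCm38.p6) were found for 7 of the 10 genes. No such sequence was found for Egr1, Arc and Ier2. The counts were made on another build, GRCm39, so the positions below serve only to place the sequences. Shown are the 250 bases before the start of Fos, Junb, Egr2 and Npas4, the genes with a sequence among those with the smallest p-values below. Capitals mark TGACG or its complement CGTCA, the core of a CREB site, and CC followed by 6 A or T and GG, the CArG box bound by SRF.
Fos (chr12:85473640-85473889, plus strand): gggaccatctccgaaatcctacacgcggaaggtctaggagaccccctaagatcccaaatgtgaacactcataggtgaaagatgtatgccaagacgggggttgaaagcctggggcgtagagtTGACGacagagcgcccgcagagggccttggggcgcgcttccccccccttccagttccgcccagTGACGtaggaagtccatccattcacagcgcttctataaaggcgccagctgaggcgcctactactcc
Junb (chr8:84978749-84978998, minus strand): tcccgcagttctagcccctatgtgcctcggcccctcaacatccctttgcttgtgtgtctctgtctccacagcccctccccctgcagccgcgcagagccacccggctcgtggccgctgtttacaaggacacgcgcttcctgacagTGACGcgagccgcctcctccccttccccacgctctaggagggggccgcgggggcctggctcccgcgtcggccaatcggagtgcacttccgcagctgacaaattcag
Egr2 (chr10:67537619-67537868, plus strand): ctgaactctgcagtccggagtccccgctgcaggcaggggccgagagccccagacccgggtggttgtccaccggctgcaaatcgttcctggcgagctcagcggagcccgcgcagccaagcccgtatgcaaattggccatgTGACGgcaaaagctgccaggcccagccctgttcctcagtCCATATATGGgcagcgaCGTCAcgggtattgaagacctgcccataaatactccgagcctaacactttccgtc
Npas4 (chr19:4989972-4990221, minus strand): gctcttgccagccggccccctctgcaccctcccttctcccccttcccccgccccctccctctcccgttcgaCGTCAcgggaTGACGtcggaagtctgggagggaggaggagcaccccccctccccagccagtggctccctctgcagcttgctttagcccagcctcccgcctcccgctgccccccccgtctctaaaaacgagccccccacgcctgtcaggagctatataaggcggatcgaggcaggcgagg
On either strand, TGACG was present in the windows of Fos (2 copies), Fosb (1), Junb (1), Npas4 (2), Nr4a1 (4) and Dusp1 (3) and in the Egr2 window shown (2), as in 3 of the 5 Egr2 windows. It was present in 17.7% of all 32817 windows of this length. The full palindrome TGACGTCA, which contains TGACG on both strands, was found in the window of Dusp1 alone among these genes and in 1.55% of all windows. Among the genes with a sequence, the CArG box was found in these windows for Egr2 alone, in 4 of its 5 windows, and in 1.47% of all windows. The 3 Egr2 windows with TGACG overlap and hold the same TGACG copies and the same CArG box. Sites farther than 250 bases upstream, and those of Egr1, Arc and Ier2, were not searched. These are matches of letters and not measured binding.

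All 10 transcripts were detected well above the counting limit in every library, with mean counts from 175 for Egr2 to 5136 for Egr1. Per length, Egr1 was the most abundant, at a mean of 48.6 FPKM over the 8 libraries (range 30.6 to 74.8), followed by Arc at 42.5 FPKM, Junb at 24.9, Nr4a1 at 12.6, Dusp1 at 11.3, Fos at 9.01, Ier2 at 3.96, Fosb at 2.41, Npas4 at 1.43 and Egr2 at 0.566. FPKM are reads scaled to gene length and library size. The lengths used for the deposited FPKM are not given in the sources used here, and the order depends on them. By mean counts, Npas4 (832) stood above Dusp1 (762), Fos (653), Fosb (315) and Ier2 (210). By FPKM, Egr1 stood above 96.2% of the genes tested and Egr2 above 50.5%, so on this scale the group runs from very abundant to middling transcripts. Most neighbours in the FPKM order kept their places in all 8 libraries, which does not test the lengths, as these are shared by all libraries. The exceptions were Egr1 above Arc (7 of 8), Nr4a1 above Dusp1 (6 of 8) and Fosb above Npas4 (7 of 8), whose levels are not told apart beyond the spread of the libraries.

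**Figure D1:**
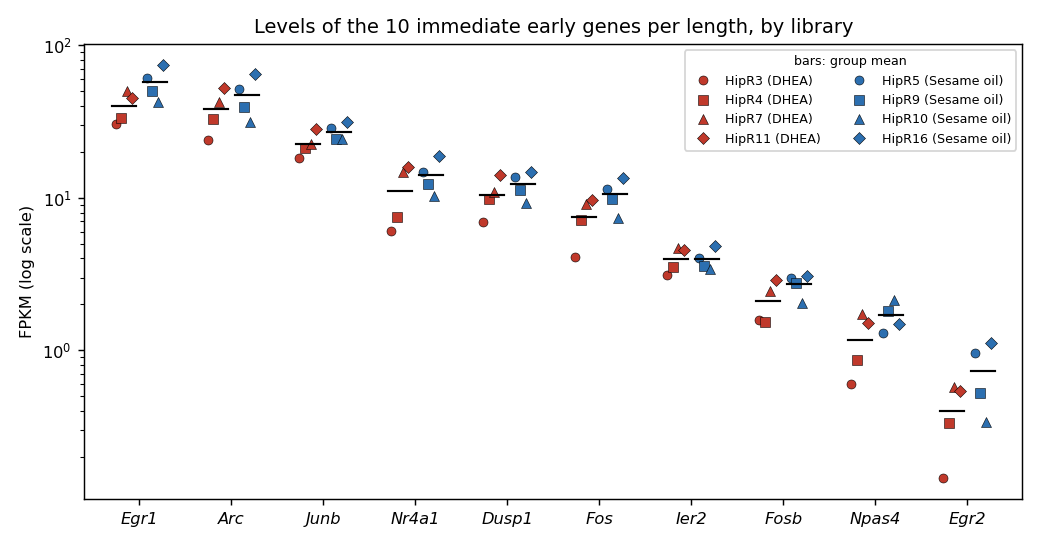
FPKM (log axis) of each gene in each library, ordered by mean level, with DHEA libraries in red, sesame oil libraries in blue and black bars at the group means (n = 4 each). Levels run from 74.8 FPKM (Egr1, HipR16) to 0.145 FPKM (Egr2, HipR3), and the groups overlap for every gene.

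Of the AP-1 genes, Fos and Junb were lower in the DHEA libraries at an unadjusted p under 0.05 in edgeR, the threshold for "passed" below, and Fosb had a difference of the same sign that did not pass. Values below are CPM, read counts scaled to library size after TMM normalization. Fos was 8.78 CPM in HipR3, 15.6 in HipR4, 18.9 in HipR7 and 20.2 in HipR11, against 23.7 in HipR5, 15.6 in HipR10, 28.6 in HipR16 and 20.2 in HipR9 of the sesame oil group. The group means were 15.9 ± 5.12 and 22.0 ± 5.49 CPM (SD, n = 4 each). HipR3 lay below every other library, and the other 3 DHEA values lay inside the sesame oil range. The log2 fold change of Fos, DHEA minus sesame oil, was -0.47 (standard error 0.20, 95% interval -0.89 to -0.05), a level 0.721 times that of sesame oil, and its adjusted p in edgeR was 0.488.

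Junb was 34.3 CPM in HipR3, 40.6 in HipR4, 41.4 in HipR7 and 51.2 in HipR11, against 52.5 in HipR5, 44.4 in HipR10, 57.6 in HipR16 and 43.7 in HipR9. Here 3 of the 4 DHEA libraries lay below the lowest sesame oil library, while HipR11 lay among the sesame oil values. Its log2 fold change was -0.24 (standard error 0.11, edgeR adjusted p = 0.511). Fosb, whose truncated product builds up with repeated stimulation, ranged from 5.95 to 10.9 CPM in the DHEA libraries and from 7.63 to 11.6 CPM in sesame oil, with HipR3 and HipR4 below all others. Its log2 fold change was -0.34 (95% interval -0.72 to 0.05, edgeR adjusted p = 0.585).

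Egr1 had the smallest p of the group and Egr2 the largest fold change. Egr1 was 96.2 CPM in HipR3, 105 in HipR4, 153 in HipR7 and 138 in HipR11, against 187 in HipR5, 130 in HipR10, 229 in HipR16 and 152 in HipR9. The means were 123 ± 26.9 and 175 ± 43.3 CPM (SD, n = 4 each). HipR3 and HipR4 were lowest and HipR5 and HipR16 highest, with the other 4 libraries mixed between them. The log2 fold change of Egr1 was -0.50 (standard error 0.15, 95% interval -0.82 to -0.19), with an adjusted p of 0.293 in edgeR.

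Egr2, the least abundant gene of the set, was 1.35 CPM in HipR3, 3.11 in HipR4, 5.16 in HipR7 and 4.90 in HipR11, against 8.57 in HipR5, 3.06 in HipR10, 10.2 in HipR16 and 4.65 in HipR9. The highest library was 7.57 times the lowest, the widest range among the 10 genes, and HipR10 of the sesame oil group lay below 3 of the DHEA libraries. The log2 fold change of Egr2 was -0.86 (standard error 0.35, 95% interval -1.61 to -0.12, edgeR adjusted p = 0.465).

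Npas4 followed another order of libraries. It was 10.3 CPM in HipR3, 14.8 in HipR4, 28.9 in HipR7 and 24.99 in HipR11, against 21.6 in HipR5, 35.8 in HipR10, 24.9 in HipR16 and 29.9 in HipR9. HipR3 and HipR4 were again lowest, but HipR10 was highest, where most of the other genes were low. Its log2 fold change was -0.51 (standard error 0.23, edgeR adjusted p = 0.505).

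Nr4a1 was 31.6 CPM in HipR3 and 39.6 in HipR4 but 75.1 in HipR7 and 81.3 in HipR11, against 52.0 to 96.8 CPM in sesame oil. The DHEA libraries thus lay on both sides of the lowest sesame oil library, and the log2 fold change of -0.33 (95% interval -0.81 to 0.15) did not pass (edgeR adjusted p = 0.659).

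None of the effectors passed. Arc was 75.3 CPM in HipR3, 104 in HipR4, 129 in HipR7 and 159 in HipR11, against 156 in HipR5, 96.2 in HipR10, 200 in HipR16 and 118 in HipR9, a log2 fold change of -0.29 (95% interval -0.70 to 0.12, edgeR adjusted p = 0.645). HipR3 lay below the lowest sesame oil library, and the other 3 DHEA libraries lay inside the sesame oil range. Dusp1 ranged from 13.8 to 27.3 CPM in DHEA and from 17.7 to 28.7 CPM in sesame oil, with a log2 fold change of -0.21 (95% interval -0.56 to 0.14, edgeR adjusted p = 0.666). Ier2 was 6.09 ± 1.07 against 5.97 ± 1.01 CPM (SD, n = 4 each), and its log2 fold change of 0.03 (95% interval -0.32 to 0.38, edgeR adjusted p = 0.974) was the only positive estimate among the 10.

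In all, 5 of the 10 genes (Egr1, Egr2, Fos, Npas4 and Junb) had an unadjusted p under 0.05 in edgeR, all lower in DHEA. That rule took 9.31% of all genes tested (2571 genes), 4.49% lower and 4.82% higher. Of the 12780 genes averaging 100 counts or more, as all 10 did, it took 15.7%, 7.60% lower and 8.08% higher. The fold change was below 0 for 9 of the 10, and for 48.8% of all genes tested and 46.6% of the well-counted ones. Adjusted over all genes tested, edgeR gave 0 of the 10 genes, and 0 genes in all (0.0%), a p under 0.05, while DESeq2 gave 0 of the 10 and 153 genes in all, and edgeR with robust moderation 0 of the 10 and 4 in all. None of the 10 genes separated the groups without overlap, as 5.04% of all genes tested and 8.46% of the well-counted ones did. Exact permutation tests (two-sided) of the mean CPM gave p from 0.143 for Fos, Junb and Egr1 to 0.914 for Ier2, where 0.0286 is the smallest p that 4 against 4 allow. The median log2 fold change of the 10 genes was -0.33, beside 0.01 for all genes tested.

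The count of 5 depended on the fit. DESeq2, the tool the methods name, gave an unadjusted p under 0.05 to Egr1 alone (log2 fold change -0.51), beside 8.22% of all genes tested and 15.2% of the well-counted ones. Egr1 was also the only one of the 10 to pass in edgeR after either filter on low counts, beside 10.7% of genes with at least 10 counts and 12.5% of genes kept by filterByExpr. Robust moderation of the dispersions left 0 of the 10, beside 9.38% of all genes tested.

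The lowest values came mostly from HipR3 and HipR4. HipR3 was the lowest of the 8 libraries for 9 of the 10 genes and among the 2 lowest for all 10, and HipR4 was among the 3 lowest for 9. Together they were the lowest pair for 5 genes (Fosb, Junb, Egr1, Npas4 and Nr4a1), as they were for 11% of all genes tested and 17% of those averaging 100 counts or more. The median deviation from the gene mean was -0.67 on the log2 scale in HipR3 and -0.35 in HipR4, but 0.08 in HipR7 and 0.18 in HipR11, the other DHEA libraries. Among the sesame oil libraries it was -0.20 in HipR10, 0.05 in HipR9, 0.31 in HipR5 and 0.53 in HipR16, which was highest of all 8 for 9 of the 10 genes. These medians thus ran from -0.67 to 0.18 within the DHEA group and from -0.20 to 0.53 within the sesame oil group.

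**Figure D2:**
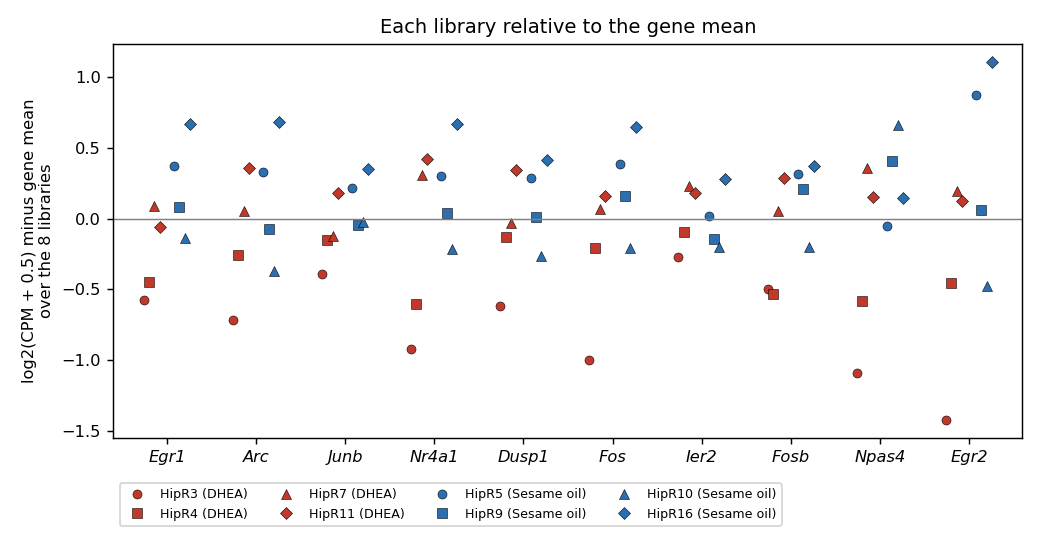
Deviation of log2(CPM + 0.5) in each library from the mean of that gene over the 8 libraries. HipR3 (red circles) lies below the mean for all 10 genes, HipR16 (blue diamonds) above it for all 10, and HipR10 (blue triangles) is low except for Npas4.

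HipR3 and HipR4 also stood apart over the whole transcriptome. On the first principal component, which held 29.6% of the variance, they scored 23.1 and 55.8, while the other 6 libraries lay between -20.8 and 0.793. Without them, none of the 10 passed the unadjusted threshold in edgeR (0 of 10), beside 7.89% of all genes tested and 12.8% of the well-counted ones. The log2 fold change of Egr1 was then -0.27 (95% interval -0.61 to 0.08), that of Egr2 -0.40, that of Fos -0.17 and that of Npas4 -0.07. Arc (0.01), Nr4a1 (0.13), Dusp1 (0.03) and Ier2 (0.22) then had positive estimates. The median over the 10 genes was -0.04. With libraries left out singly, Egr1 kept an unadjusted p under 0.05 in 8 of 8 edgeR fits, Fos and Egr2 in 5, Npas4 in 4 and Junb in 3. The number of the 10 under 0.05 was 1 without HipR3 (beside 7.08% of all genes tested in that fit), 2 without HipR5 (6.53%) or HipR16 (7.50%), 3 without HipR4 (7.26%) and 4 without HipR9 (8.25%). It was 6 without HipR7 (13.4%) or HipR10 (7.48%) and 9 without HipR11 (11.9%).

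**Figure D3:**
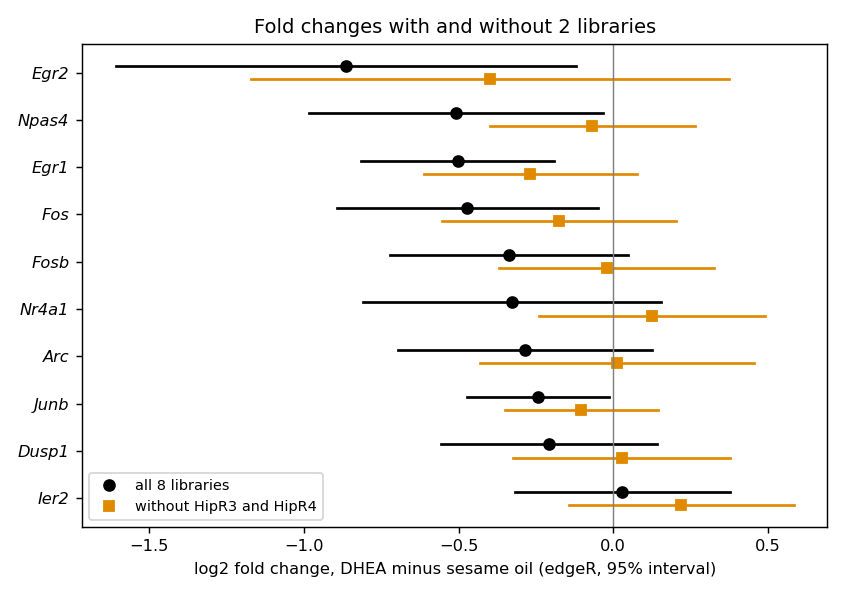
Log2 fold changes, DHEA minus sesame oil, with 95% intervals from edgeR, for all 8 libraries (black circles) and without HipR3 and HipR4 (orange squares). The intervals of Egr2, Npas4, Egr1, Fos and Junb exclude 0 with all libraries, and none of the 10 does without the 2.

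The genes varied together from mouse to mouse. Over the 45 pairs, Pearson's r of log2(CPM + 0.5) across the 8 libraries had a median of 0.871 (0.37 to 0.977), and 45 of 45 were positive. Of these, 33 were above 0.7, as were 6.92% of all pairs among the 12780 genes averaging 100 counts or more, whose median was near 0 and of which 50.5% were positive. After adjustment over the pairs, 33 had an exact permutation p under 0.05 for Pearson's r and 32 for Spearman's rho. Arc and Dusp1 were the closest pair (r = 0.977, exact permutation p = 7.44e-05, adjusted p = 0.00335; rho = 0.976, exact permutation p = 0.000397, adjusted p = 0.0147). Fos and Egr2 were next (r = 0.977, exact permutation p = 0.000273, adjusted p = 0.00409; rho = 0.905, exact permutation p = 0.00456, adjusted p = 0.0147). Computed on residuals from the group means, pooled over both groups, r had a median of 0.876 (0.329 to 0.974). The median thus did not depend on the difference between the group means. No r was computed inside each group.

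Npas4 was the gene least tied to the rest, with a median r of 0.537 to the others, against 0.744 for Ier2 and 0.868 to 0.931 for the remaining 8. With Arc it had r = 0.452 (exact permutation p = 0.268, adjusted p = 0.274) and rho = 0.0952 (exact permutation p = 0.840, adjusted p = 0.879), and without HipR3 and HipR4 the value was -0.842 over 6 libraries. Without this pair of libraries all 9 pairs with Npas4 were negative (-0.898 to -0.561) and the other 36 positive, with 28 of the 45 above 0.7, beside 7.29% of the well-counted pairs. Leaving out the 2 libraries farthest from the median of the first gene of each pair, HipR3 among them for the pairs named here, lowered the median r over pairs to 0.729, with 39 of 45 positive. With 6 libraries, 18 pairs had an unadjusted exact permutation p under 0.05 and 0 an adjusted p under 0.05, where the smallest p that 6 libraries allow is 0.00139. Arc with Dusp1 stayed at r = 0.97 and Fos with Egr2 at 0.959, both short of the adjusted threshold (exact permutation, adjusted p = 0.0625 and 0.0859).

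**Figure D4:**
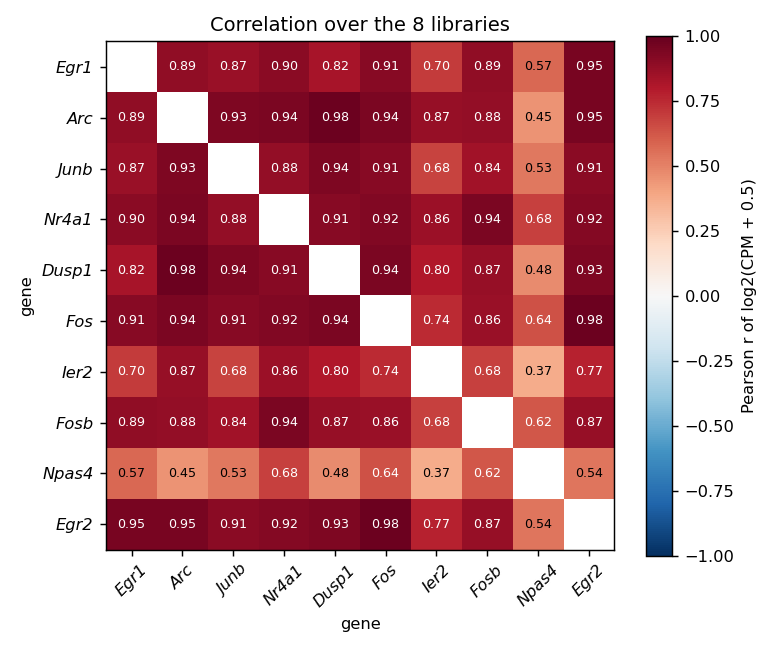
Pearson's r of log2(CPM + 0.5) over the 8 libraries for each pair of genes, ordered by level. All 45 values are positive with all 8 libraries (36 without HipR3 and HipR4), and the palest row is that of Npas4, whose lowest value is 0.37 with Ier2.

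Outside the set, the genes whose pattern over the 8 libraries was most like that of Fos were Rasgrp2 (r = 0.985), Usp13 (0.972), Cdk10 (0.958), Galc (0.957) and Adcyap1r1 (0.953), out of 13939 genes averaging 50 counts or more. For Arc they were Cdk10 (0.971), Rapgef1 (0.945), Smg5 (0.939), Adarb1 (0.934) and Usp13 (0.934). These are the highest of many values over 8 libraries and are given as a description. Their own log2 fold changes were small, from -0.19 for Rasgrp2 to -0.05 for Smg5. Placed in the same order of likeness to Fos, Egr2 would stand at rank 2, Dusp1 at 8 and Arc at 10, and Npas4 at 1450.

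The counts for other rapid genes that activity induces are set beside the well-counted genes. Of these, 15.7% were called, 7.60% lower and 8.08% higher. In these lists, Fosl1, Atf3, Maff and Amigo3 averaged fewer than 100 counts. Of 21 further rapid transcription factors, 3 passed the unadjusted threshold of 0.05 in edgeR, all lower in DHEA, and the list median was a log2 fold change of -0.12. They were the nuclear receptor genes Nr4a2 (-0.32, edgeR adjusted p = 0.322) and Nr4a3 (-0.17, edgeR adjusted p = 0.528) and the zinc finger factor Egr3 (-0.17, edgeR adjusted p = 0.531), and without HipR3 and HipR4 Nr4a3 (-0.12) and Egr3 (-0.07) no longer passed, while Btg2 passed as higher (0.23). Nr4a2 was 53.7, 63.3, 68.7 and 49.5 CPM in HipR3, HipR4, HipR7 and HipR11, against 80.8, 62.6, 80.9 and 68.3 CPM in HipR5, HipR10, HipR16 and HipR9. It was lowest in HipR11, where most of the 10 genes were high, and its log2 fold change without HipR3 and HipR4 was -0.31, with an unadjusted p still under 0.05. The most abundant gene of this list per length, Bhlhe40, a circadian repressor, had a log2 fold change of -0.13 (edgeR adjusted p = 0.666). The number of this list that passed was 1 without HipR3 (beside 7.08% of all genes tested in that fit) and 9 without HipR11 (11.9%).

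Of 23 further rapid effectors, 4 had an unadjusted p under 0.05, 1 lower and 3 higher in DHEA, beside 15.7% of the well-counted genes in either direction. The list median was 0.03. The lower gene was Dusp6, a phosphatase specific for ERK and a relative of Dusp1. It was 52.1 to 57.2 CPM in the DHEA libraries and 59.4 to 75.8 CPM in sesame oil, without overlap, with a log2 fold change of -0.26 (standard error 0.08, edgeR adjusted p = 0.297) and -0.23 without HipR3 and HipR4, where it still passed. The higher genes were Fbxo33, an F-box gene (0.21, edgeR adjusted p = 0.312), Rheb, the GTPase that activates mTORC1 (0.20, edgeR adjusted p = 0.465), and Arl5b (0.19, edgeR adjusted p = 0.465). Fbxo33 also separated the groups, at 52.9 to 57.6 CPM in DHEA and 44.7 to 49.4 CPM in sesame oil. These were 2 of the 23 effectors, beside 8.46% of the well-counted genes without overlap. Without HipR3 and HipR4, Fbxo33 still passed (0.18), while Rheb (0.01) and Arl5b (0.18) did not, and Dusp5, another phosphatase gene, passed as higher (0.37). The polo-like kinase gene Plk2, the most abundant of this list, was 180 ± 7.18 and 180 ± 7.36 CPM (SD, n = 4 each).

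Of 11 delayed activity-induced genes, which follow the rapid wave, 2 were lower and 2 higher at an unadjusted p under 0.05 in edgeR, beside 15.7% of the well-counted genes in either direction. The secreted peptide precursor Vgf (-0.32, edgeR adjusted p = 0.299) and the activin subunit Inhba (-0.29, edgeR adjusted p = 0.457) were lower in DHEA. Inhba alone of the 11 did not overlap between the groups, beside 8.46% of the well-counted genes. The neuritin gene Nrn1 (0.30, edgeR adjusted p = 0.245), the most abundant of the list, and the neurotrophin gene Bdnf (0.21, edgeR adjusted p = 0.487) were higher. Without HipR3 and HipR4, Vgf (-0.33), Inhba (-0.40) and Nrn1 (0.18) still passed, Bdnf (0.04) did not, and Scg2 (-0.20) and Cdkn1a (0.63) passed as well, beside 12.8% of the well-counted genes. Nrn1 was 245 and 269 CPM in HipR3 and HipR4, the libraries where the immediate early genes were lowest, against 203 in HipR7, 240 in HipR11 and 183 to 208 in sesame oil.

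Of 20 genes of the upstream signalling path, 3 had an unadjusted p under 0.05, all lower in DHEA. Beside them, 7.60% of the well-counted genes were called lower and 15.7% in either direction. The 3 were the CREB coactivator Crebbp (-0.19, edgeR adjusted p = 0.452), the NMDA receptor subunit Grin1 (-0.16, edgeR adjusted p = 0.486) and the L-type calcium channel Cacna1c (-0.18, edgeR adjusted p = 0.503). The list median was -0.02, and the most abundant gene, Camk2a, a kinase of excitatory synapses, had a log2 fold change of 0.02 (edgeR adjusted p = 0.911). Without HipR3 and HipR4, Crebbp (-0.07), Grin1 (-0.06) and Cacna1c (-0.08) no longer passed, and the 1 gene that then did was the SRF partner Elk1 (-0.24). The number of this list that passed was 6 with filterByExpr (beside 12.5% of genes in that fit) and 0 without HipR3 (7.08%). Grin1 and Mef2d, 2 of the 20, did not overlap between the groups, beside 8.46% of the well-counted genes. None of the genes of these 4 lists had an adjusted p under 0.05 in edgeR.

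**Figure D5:**
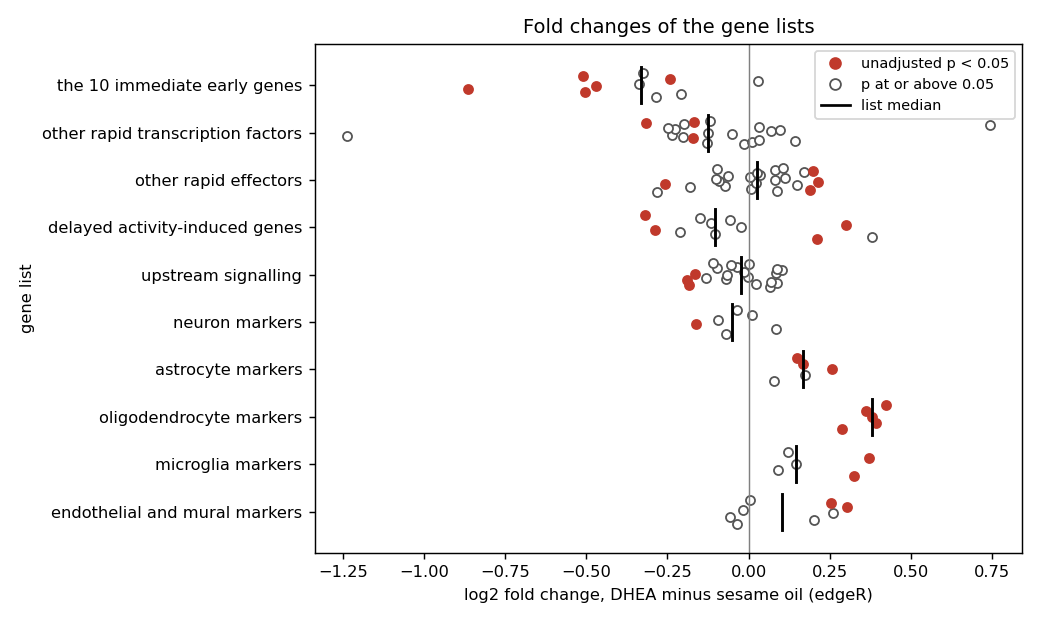
Log2 fold changes, DHEA minus sesame oil, of every tested gene in the activity and cell marker lists, with filled points at an unadjusted edgeR p under 0.05 and black lines at list medians. The 10 immediate early genes have a median of -0.33 and the oligodendrocyte markers one of 0.38.

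In bulk tissue, fewer cells of a type and less RNA per cell cannot be told apart. All 5 oligodendrocyte markers were higher in DHEA at an unadjusted edgeR p under 0.05 (median log2 fold change 0.38), a threshold that 8.08% of the well-counted genes passed as higher, though none of the 5 had an adjusted p under 0.05. Their summed level was 5791, 7346, 5723 and 5935 CPM in HipR3, HipR4, HipR7 and HipR11, against 4665, 4621, 3917 and 5574 CPM in HipR5, HipR10, HipR16 and HipR9. HipR16, the library with the highest immediate early genes, had the lowest sum, and HipR4 the highest. Without HipR3 and HipR4, 4 of the 5 still passed (median 0.30). Of the other lists, 3 of 5 astrocyte markers, led in level by Slc1a3, 2 of 5 microglia markers, led by C1qa, and 2 of 8 endothelial and mural markers, led by Rgs5, passed, all higher, beside the same 8.08%. The astrocyte sum was 1461 to 1744 CPM in DHEA and 1312 to 1531 CPM in sesame oil, the microglia sum 205 to 277 and 190 to 221 CPM, and the endothelial and mural sum 387 to 519 and 403 to 437 CPM, each highest in HipR4. Without HipR3 and HipR4, where 12.8% of the well-counted genes passed in either direction, 0 astrocyte and 0 microglia markers passed (medians 0.14 and 0.04), and the endothelial and mural median turned from 0.10 to -0.07, with Flt1 (-0.13) and Vtn (-0.21) then passing as lower. Their part in the immediate early gene values was not tested.

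Of 6 neuron markers, 1 passed, Rbfox3, which encodes the NeuN antigen, at a log2 fold change of -0.16 (edgeR adjusted p = 0.348). The threshold was passed by 15.7% of the well-counted genes (7.60% as lower and 8.08% as higher), and by 12.8% without HipR3 and HipR4. Rbfox3 did not overlap between the groups, as 8.46% of the well-counted genes did not. It still passed without HipR3 and HipR4 (-0.18), where Slc17a7, the vesicular glutamate transporter gene, passed too (-0.13). The summed neuron markers, led by Snap25, were 4979 to 5417 CPM in DHEA and 5000 to 5572 CPM in sesame oil. All 8 hippocampal markers were detected, with Neurod6 the most abundant, summing to 1103 to 1135 CPM in DHEA and 1057 to 1300 CPM in sesame oil, and Spink8 was higher in DHEA (0.32, edgeR adjusted p = 0.469), but did not pass without HipR3 and HipR4 (0.17), where C1ql2 (-0.23), Fibcd1 (-0.23) and Neurod6 (-0.17) passed as lower. Dsp, a granule cell marker, was 18.1 CPM in HipR16 and 44.8 to 59.5 CPM in the other 7 libraries, and Prox1, another, was also lowest in HipR16, at 112 against 114 to 145 CPM. C1ql2, the third granule cell marker of the list, was 44.97 CPM in HipR16 and lowest in HipR7, at 40.45 CPM. HipR16 had the highest values for 9 of the 10 immediate early genes, and the part of this difference was not tested. Markers of thalamus (0 of 5, led by Prkcd) and choroid plexus (0 of 5, led by Ttr) had none under 0.05 with all libraries. The shares called were 9.31% of all genes tested and 15.7% of the well-counted ones. Without HipR3 and HipR4, Clic6 of the choroid plexus list passed as higher (0.72), beside 7.89% and 12.8%. The choroid plexus sum was 4405 CPM in HipR3 and 91.6 CPM in HipR4, so the pair of libraries with low immediate early genes lay at opposite ends of this measure. No marker of any list was at 0 in all libraries.

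At an unadjusted p under 0.05, which 15.7% of the well-counted genes passed in either direction with all libraries and 12.8% without HipR3 and HipR4, 2 of 5 heat shock genes and 1 of 5 glucocorticoid-induced genes were called with all libraries. Of the heat shock genes, Hspb1 (-0.52, edgeR adjusted p = 0.531) and Dnajb1 (-0.19, edgeR adjusted p = 0.531) were lower, and Hsph1, the most abundant, had a log2 fold change of -0.14 (edgeR adjusted p = 0.606). Hspb1 (-0.75), Dnajb1 (-0.24) and Hsph1 (-0.27) passed as lower without HipR3 and HipR4. Of the glucocorticoid-induced genes, Tsc22d3 was higher (0.30, edgeR adjusted p = 0.459). Tsc22d3 (0.39), Sgk1 (0.68) and Cdkn1a (0.63), which is also in the delayed list, passed as higher without HipR3 and HipR4. Sgk1, the most abundant, was 146 CPM in HipR11 and 50.4 to 79.6 CPM in the other 7 libraries, and HipR11 was not among the 3 lowest libraries for any of the 10 genes.

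Technical measures also differed between the groups. The share of mitochondrial reads was 7.29% to 9.34% in DHEA and 6.37% to 7.23% in sesame oil, and was highest in HipR4 (9.34%) and HipR3 (7.87%). The correlation across genes of a library's deviation with GC content was -0.081 to -0.00109 in DHEA and 0.0377 to 0.102 in sesame oil. With each library's trend on GC content removed, 4 of the 10 genes kept an unadjusted edgeR p under 0.05, beside 8.54% of all genes tested, with log2 fold changes of -0.47 for Egr1, -0.85 for Egr2, -0.46 for Fos and -0.49 for Npas4, and Junb, at -0.19, did not. The part of the mitochondrial share was not tested. The labels give no batch.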

How the data were processed

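Libraries were made from hippocampal RNA and sequenced as paired-end reads. The submitters' processing notes name fastp, HISAT2, HTSeq and the build GRCm39, with versions, annotation and strand setting not given in the sources used here. The deposited counts are raw reads by gene symbol, without normalization. FPKM values for the same genes were also deposited by the authors. Library totals of 31483772 to 38038361 counts left counting error smaller than the spread between mice for these 10 genes. Each library is a separate mouse. Controls were littermates by the study's methods, and the litter of each library is not given.

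Counts were normalized with TMM and tested with the quasi-likelihood test of edgeR 4.0.16 (R 4.3.3, prior count 0.125) on the 27612 genes with at least 1 count, with Benjamini-Hochberg adjustment over all of them. The standard error is the fold change divided by the root of F. Single values were compared by exact permutation over 70 allocations, and pairs of genes over 40320 pairings. DESeq2 1.42.0, limma 3.58.1 on FPKM, normalization, filters, prior count, dispersion moderation, GC content (longest GENCODE vM21 transcript, 15594 of 16813 genes) and left-out libraries were alternatives. Scripts were tested on simulated counts with 200 changed genes at a log2 fold change of 1.5 in size. At an adjusted p under 0.05, edgeR recovered 197 with 77 false calls, and DESeq2 recovered 199 with 57 false calls. The false share in this simulation was thus larger than the threshold implies.

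The genes and lists were chosen with earlier results of these data known. Named were all 10 genes, up to 6 genes per pathway list with an unadjusted p under 0.05, the most abundant gene of each list, and the 5 genes most like Fos and Arc. Other genes, such as Rbfox3, Spink8 and those passing only without HipR3 and HipR4, were named after their values were seen. A marker gene that the rule would name is not reported here.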

Additional observations from a re-analysis of the deposited data

How the results depend on the processing

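In the fits across all genes, Egr1 passed an unadjusted p under 0.05 in every alternative run except robust moderation and the fit without HipR3 and HipR4. The exact permutation p of its mean CPM was 0.143, and 0.0857 to 0.257 with single libraries left out. No alternative gave any of the 10 genes an adjusted p under 0.05. RLE normalization and a prior count of 1 changed no call among the 10 genes, and no count of the activity, heat shock and glucocorticoid-induced lists. Over the whole table, 2598 genes passed with RLE normalization, against 2571 in the main fit. The causes of other changes were not tested. No paired analysis was possible because the library numbers differ between the groups and the litter of each library is not given.

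The log2 fold changes of Fos, Junb, Egr2 and Npas4 that no longer passed were, in that order, -0.48, -0.25, -0.87 and -0.515 with DESeq2, -0.479, -0.251, -0.871 and -0.516 with at least 10 counts over the libraries, -0.48, -0.252, -0.871 and -0.516 with filterByExpr, -0.472, -0.265, -0.298 and -0.331 with limma-trend on log2(FPKM + 1), and -0.528, -0.275, -0.735 and -0.573 on log2(FPKM + 0.1), where Ier2 was -0.00106. The number of the 10 genes that passed was 1 in each of these. Over the whole table, 2604 genes passed with log2(FPKM + 1) and 2605 with log2(FPKM + 0.1), against 2571 in the main fit. Robust moderation gave -0.472, -0.243, -0.864 and -0.509, and -0.503 for Egr1, with 0 of the 10. Removal of the GC trend gave -0.188 for Junb. Without HipR3 and HipR4, an alternative chosen after seeing the data, Fos was -0.175, Junb -0.104, Egr1 -0.268, Egr2 -0.398 and Npas4 -0.0675, and Arc (0.0117), Nr4a1 (0.126) and Dusp1 (0.0282) changed sign, with 0 of the 10.

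Genes with an adjusted p under 0.05 over the whole table, 0 in edgeR, numbered 153 with DESeq2, 4 with robust moderation and 1 without HipR3 and HipR4. Of the other rapid transcription factors 1 passed with DESeq2. Of the other rapid effectors 2 passed with either limma fit, and of the delayed genes 2 with log2(FPKM + 0.1). Of the upstream signalling genes 6 passed with filterByExpr, 5 with either limma fit and 1 without HipR3 and HipR4. Beside the list counts of this paragraph, the share of all genes tested that passed was 8.22% with DESeq2 and 9.38% with robust moderation. It was 10.7% with at least 10 counts and 12.5% with filterByExpr. It was 8.54% with the GC trend removed and 7.89% without HipR3 and HipR4. The limma fits gave 2604 genes with log2(FPKM + 1) and 2605 with log2(FPKM + 0.1). Of the heat shock genes 1 passed with DESeq2 and with log2(FPKM + 0.1), and 0 with at least 10 counts, filterByExpr, log2(FPKM + 1) and the GC trend removed. Of the glucocorticoid-induced genes 3 passed without HipR3 and HipR4, and 0 with either filter, robust moderation and either limma fit. Without the 2 farthest libraries, 0 gene pairs had an adjusted exact permutation p under 0.05, against 33, but the 720 pairings of 6 libraries allow no p below 0.00139, which adjusted for a pair alone is 0.0625, so this count says little about stability.

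With single libraries left out, log2 fold changes ran from -0.609 to -0.271 for Fos, -0.518 to -0.224 for Fosb, -0.355 to -0.158 for Junb, -0.625 to -0.352 for Egr1, -1.10 to -0.586 for Egr2, -0.472 to -0.0857 for Arc, -0.751 to -0.295 for Npas4, -0.549 to -0.127 for Nr4a1, -0.0528 to 0.139 for Ier2 and -0.381 to -0.0599 for Dusp1. The difference in mean CPM of Ier2 ran from -0.219 to 0.585. The genes that passed ranged from 1 (without HipR3) to 9 (without HipR11) of the 10, from 1786 to 3667 over the whole table, and from 1 to 9 of the other rapid transcription factors, 2 to 5 of the effectors, 3 to 5 of the delayed genes, 0 to 3 of the upstream signalling genes, 0 to 4 of the heat shock genes and 0 to 3 of the glucocorticoid-induced genes. Genes with an adjusted p under 0.05 ranged from 0 to 93, the latter without HipR7.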
